A study of Mus musculus with 3 samples.

Results

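The cells described here were 149 Flt3+ H2-Ab1+ cells among 12472 filtered cells of a CD45+ sort from 4T1 tumors, chosen from their own transcripts as conventional dendritic cells that had not matured. Flt3 encodes the receptor for the growth factor that dendritic cells depend on, and H2-Ab1 a chain of MHC class II, which shows antigen to CD4+ T cells. A cell was taken when it held at least 1 UMI (1 captured mRNA molecule) of Flt3 and at least 5 of H2-Ab1, none of Cd3e or Cd79a, fewer than 10 of C1qa, C1qb and C1qc together, and fewer than 3 of the 5 maturation genes Ccr7, Fscn1, Ccl22, Cacnb3 and Ccl17. Vehicle held 35 such cells, p38i 49 and p38KO 65. Cells with Xcr1 or Clec9a, the markers of the cDC1 type, were described apart, and there were 21 of them in vehicle, 24 in p38i and 40 in p38KO.

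All tumors grew from 200000 4T1-luc mouse mammary carcinoma cells, which carry a luciferase reporter, placed in the fourth mammary fat pad of female BALB/c mice aged 6 to 8 weeks, and were taken on day 14. Vehicle mice carried p38α wild-type tumors and received DPBS from day 4 for 10 days. The p38i mice carried the same tumors and were given the p38 inhibitor LY2228820 by gavage at 30 mg/kg daily over those days. The p38KO mice carried the line p38a-KO-H9, 4T1-luc cells in which CRISPR-Cas9 had inactivated p38α, so that the kinase was missing in the tumor cells only. Knockout lines were grown from single sorted cells, and the label of this library names no drug or vehicle treatment. Tumors of 3 mice were pooled for each library and live CD45+ cells were sorted, so each group is 1 library, no test between groups could be made, and library, mouse and treatment cannot be told apart. Intervals below are exact 95% intervals and cover counting error only, not the spread between mice or between cells.

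Dendritic cells take up antigen and show it to T cells. The cDC1 type depends on the transcription factors Irf8 and Batf3, takes up dead cells and presents their antigens to CD8+ T cells, while the cDC2 type presents mostly to CD4+ T cells. Plasmacytoid dendritic cells are a further type that also carries Flt3 and some MHC class II, and is known for making type I interferon.

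The libraries held 21675352 UMIs in vehicle, 25996832 in p38i and 25997636 in p38KO. The 149 cells were deeper than the rest, with a median of 13924 UMIs per cell in vehicle, 10540 in p38i and 14944 in p38KO, against 3162, 3038 and 3317 over all cells that passed the filter. Their summed UMIs, which set the precision of the gene values below, were 532776 in vehicle, 625108 in p38i and 1065627 in p38KO. The libraries shared between 5 and 9 cell barcodes in pairs, none of them among the 149 cells. The median mitochondrial share was 2.86% in vehicle, 2.72% in p38i and 3.36% in p38KO for these cells, and 0.671%, 0.968% and 2.10% over all filtered cells, so it was highest in p38KO in both.

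The label was checked against markers, and it held for part of the cells only. Of the 149 cells, 41 carried at least 6 of 8 plasmacytoid markers (Siglech, Ccr9, Tcf4, Bst2, Ly6d, Cox6a2, Runx2 and Pacsin1) with 48 to 405 UMIs of them, a threshold chosen after seeing these counts. No other cell carried more than 4 of the 8, and none held more than 26 of these UMIs. These plasmacytoid-marked cells numbered 11 in vehicle, 14 in p38i and 16 in p38KO, and every one held Siglech, a receptor typical of plasmacytoid cells, at a median of 29 UMIs in vehicle, 18 in p38i and 36 in p38KO. None held Xcr1, but 14 of the 41 held Clec9a, which mouse plasmacytoid cells are known to carry at a low level, and so entered the group with Xcr1 or Clec9a. In the rest of the text the plasmacytoid-marked cells are kept as a kind of their own beside the Xcr1+ cells (63 cells) and the 37 remaining cells with neither Xcr1 nor Clec9a, called double-negative below, with 8 cells that held Clec9a alone left over.

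**Figure D1:**
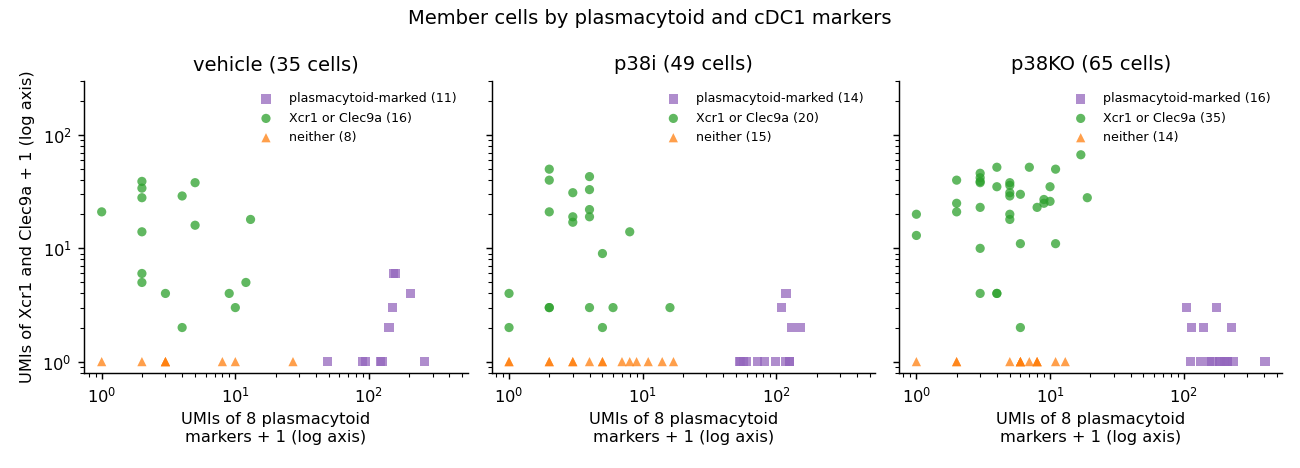
Each point is 1 of the 149 cells, with the UMIs of 8 plasmacytoid markers + 1 on the x axis and those of Xcr1 and Clec9a + 1 on the y axis, both log axes, with a panel for each library. The plasmacytoid-marked cells stand apart at 48 to 405 marker UMIs, while the other cells hold 26 or fewer.

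The 3 kinds differed in the genes that mark them, which is a description because the split was made from the same cells. The median Xcr1 count among non-plasmacytoid cells with Xcr1 or Clec9a was 7 UMIs in vehicle, 11.5 in p38i and 21 in p38KO, with highest cells of 34, 38 and 45. Naaa, a lysosomal hydrolase typical of cDC1, had medians of 31.5, 34 and 58 UMIs in these cells, and 1, 3 and 1 in double-negative cells. Cst3, the protease inhibitor abundant in conventional dendritic cells, had medians of 625.5, 609.5 and 595 UMIs per cell in the first kind, 51.5, 60 and 65.5 in double-negative cells, and 12 and 15.5 in the plasmacytoid-marked cells of p38i and p38KO. H2-Ab1 followed the same order, with medians of 143.5, 121 and 157 UMIs in cells with Xcr1 or Clec9a, 67.5, 68 and 77 in double-negative cells and 19, 12.5 and 23 in plasmacytoid-marked cells. Cd209a, a lectin found on many cDC2, was detected in 5 of 8 double-negative cells of vehicle, 8 of 15 of p38i and 6 of 14 of p38KO, and in none of the Xcr1+ cells of vehicle and p38i and 2 of 35 of p38KO. It was also found in 4 of 11, 3 of 14 and 5 of 16 plasmacytoid-marked cells.

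Among 3686 genes compared between non-plasmacytoid cells with Xcr1 or Clec9a and double-negative cells, 123 were at least 1 log2 unit higher in each of the 3 libraries and 151 at least 1 lower. Serpinb6b, a protease inhibitor, stood at 273, 252 and 232 CPM (counts scaled to an equal UMI total for every library and kind of cell) in the Xcr1 or Clec9a cells of vehicle, p38i and p38KO, and at 0, 10.7 and 6.01 in double-negative cells. Tlr3, the sensor of double-stranded RNA that cDC1 are known for, stood at 259, 213 and 313 CPM against 0, 10.7 and 12. Ppt1, a lysosomal thioesterase, stood at 960, 1297 and 1660 CPM against 90.3, 101 and 84.1, and others higher in each library were Itgae, which encodes CD103, Cadm1, Cyp26b1, Cd36, Fam149a, Plpp1 and Ly75. Lower in the cells with Xcr1 or Clec9a were Il7r, Socs3, Clec4n, Cd14, Csf1r and Cd209d. Lyz2, the lysozyme of myeloid cells, was lower too, at 582, 135.5 and 109 CPM against 3644, 2392 and 4871. In vehicle 120 Lyz2 UMIs lay in 1 cell that held 2 UMIs of Clec9a, 20 of Cd209a and no Xcr1. No other vehicle cell with Xcr1 or Clec9a outside the plasmacytoid-marked ones held more than 20. The plasmacytoid-marked cells held Klk1 at 2981, 2370 and 3064 CPM, Cox6a2 at 1515, 2323 and 2381 and Igkc at 1250, 643 and 508, where all other cells together reached at most 1.18 CPM of these 3 genes. Cox6a2 is among the markers that defined this kind, so its contrast was partly set by the split. Batf3, Itgae and Plet1 were listed at 0 in the plasmacytoid-marked cells of each library.

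Zbtb46, a transcription factor of conventional dendritic cells, was found at full depth in 9 of 14, 7 of 14 and 26 of 35 Xcr1+ cells, in 1 of 8, 6 of 15 and 3 of 14 double-negative cells, and in 0, 0 and 1 plasmacytoid-marked cells, against 1.21%, 0.436% and 0.681% of T cells, which should lack it. With every cell thinned to 1500 UMIs, it was left in 0, 1 and 5 Xcr1+ cells and in 0, 0 and 1 double-negative cells. Thinned in this way, Cd209a was found in 2 of 8, 6 of 15 and 4 of 14 double-negative cells, in none of the Xcr1+ cells and in none of the T cells.

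Many cells lay near the threshold of the rule for Flt3. Exactly 1 UMI of Flt3 was held by 14 of the 35 vehicle cells, 27 of the 49 p38i cells and 22 of the 65 p38KO cells, and 249, 407 and 224 further cells met every criterion but Flt3. Cells that failed on H2-Ab1 alone numbered 14, 35 and 23, of which 5, 18 and 9 held 1 to 4 UMIs, and in vehicle their summed Siglech level was 1311 CPM. Cells that failed on the C1q sum alone numbered 1, 0 and 7, and the highest sum inside the rule was 4. No C1q UMI was held by 31 of the 35 vehicle cells, 45 of the 49 p38i cells and 31 of the 65 p38KO cells. C1q transcripts were thus most widespread in p38KO, and their part in the gene values was not tested. The maturation criterion turned away 0, 2 and 1 cells, and 0, 2 and 3 accepted cells held 2 of the 5 genes.

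The 149 cells made up 0.916% (0.639 to 1.27) of filtered cells in vehicle, 1.02% (0.757 to 1.35) of those in p38i, and in p38KO 1.68% (1.30 to 2.14). The p38KO share lay above vehicle with no overlap of the counting intervals, while p38i overlapped both. By kind, non-plasmacytoid cells with Xcr1 or Clec9a made up 0.419% (0.240 to 0.679) in vehicle, 0.417% (0.255 to 0.644) of the p38i cells, and 0.907% (0.633 to 1.26) of the p38KO cells, so that the p38KO interval overlapped those of the other libraries only narrowly. All 35 of these p38KO cells held Xcr1, against 14 of 16 in vehicle and 14 of 20 in p38i. Xcr1+ cells alone thus numbered 14, 14 and 35 of 3820, 4793 and 3859 filtered cells. Double-negative cells made up 0.209%, 0.313% and 0.363%, and plasmacytoid-marked cells 0.288%, 0.292% and 0.415%, with overlapping intervals throughout. Counting all filtered cells with at least 6 of the 8 plasmacytoid markers, whether or not they met the rule, gave 22 cells in vehicle, 48 in p38i and 40 in p38KO, or 0.576%, 1.00% and 1.04%.

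**Figure D2:**
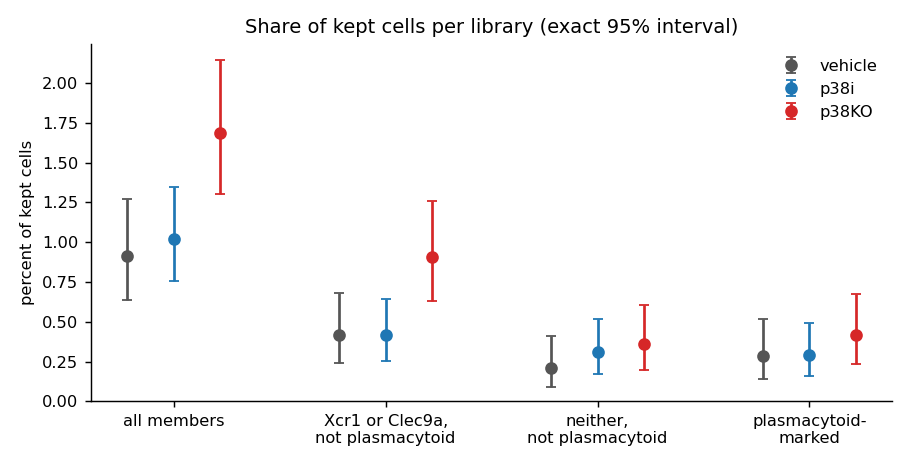
Points show the percent of filtered cells (y axis) that were members, non-plasmacytoid cells with Xcr1 or Clec9a, double-negative cells and plasmacytoid-marked cells (x axis) in vehicle, p38i and p38KO, and bars are exact 95% intervals for counting error. The p38KO point is the highest of the 3 libraries in each of the 4 columns, and its interval clears that of vehicle for all members alone.

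With the rule applied after thinning to 1500 UMIs, 3, 6 and 14 cells were left (0.0785%, 0.125% and 0.363%). The p38KO interval (0.198 to 0.608) then overlapped that of vehicle (0.0162 to 0.229), so the separation seen at full depth was not kept. Among the 149 cells, the share with Xcr1 or Clec9a after thinning was 28.6% (14.6 to 46.3) in vehicle, 28.6% (16.6 to 43.3) in p38i and 47.7% (35.1 to 60.5) for p38KO, and at full depth 60%, 49.0% and 61.5%. The thinned shares overlapped within counting error.

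Gene values between libraries were compared on UMIs summed over cells. A gene counted as higher or lower when its log2 ratio to vehicle was at least 0.5 either way, its counting interval left out 0 and both libraries together held at least 20 counts; the rule's own genes were left out. Over all 149 cells, p38i was higher than vehicle for 278 of 6035 genes (4.61%) and lower for 253 (4.19%), and p38KO was higher for 449 of 7009 (6.41%) and lower for 354 (5.05%). With the cell of most counts left out for each gene in each library, 226 (3.74%) and 184 (3.05%) of these calls held for p38i and 420 (5.99%) and 245 (3.50%) for p38KO. The median log2 ratio over all genes was 0.03 for p38i and 0.06 for p38KO. Both comparisons rest on the same 35 vehicle cells, so their values are given side by side and not as independent results.

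Split as the rule asks, cells with Xcr1 or Clec9a had 222 of 4433 genes higher (5.01%) and 266 lower (6.00%) in p38i, and 428 of 5752 higher (7.44%) and 456 lower (7.93%) in p38KO. Without the plasmacytoid-marked cells that held Clec9a, these shares were 5.34% and 4.34% in p38i and 7.60% and 5.49% in p38KO. Cells with neither had 197 of 3271 higher (6.02%) and 206 lower (6.30%) in p38i, and 194 of 3607 higher (5.38%) and 174 lower (4.82%) in p38KO. All members without the plasmacytoid-marked cells had 5.81% of 4925 genes higher and 3.88% lower in p38i, and 7.77% of 5968 higher and 5.01% lower in p38KO. In Xcr1+ cells without the highest cells, 3.74% of genes were higher and 4.24% lower in p38i, and 6.58% and 2.79% in p38KO. The same shares were 6.55% and 3.42%, then 5.52% and 2.29%, in double-negative cells, and 2.41% and 3.51%, then 3.24% and 2.68%, in plasmacytoid-marked cells.

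Among immediate-early genes, those called were lower in both comparisons. Cells switch these genes on within minutes of a stimulus, and they include targets of p38 signaling through CREB and ATF1. Of 19 such genes with enough counts, 13 were lower in p38i and none higher, with a median log2 ratio of -0.94, and 13 were lower in p38KO and none higher, with a median of -1.18. With the highest cells left out, 12 were called in each comparison. The background of lower genes was 4.19% and 5.05%. Transcripts of neutrophils moved with these values: 3 vehicle cells, 1 p38i cell and 2 p38KO cells held 10 or more UMIs of S100a8 and S100a9. Without these S100-rich cells, a choice made after seeing the data, 11 of 19 were lower in p38i and 13 in p38KO (4.08% and 5.48%).

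Fos, Fosb and Dusp1 are shown by the start of their genes, because they lay far below vehicle and CREB and ATF1 bind the sequence TGACG. Each line gives 250 bases before and 50 after the annotated start on the gene's strand, from RefSeq (GRCm38.p6), in lower case with TGACG on either strand in capitals. Fos lies at chr12:85473640-85473939 on the + strand, Fosb at chr7:19309996-19310295 on the − strand and Dusp1 at chr17:26508423-26508722 on the − strand.
Fos: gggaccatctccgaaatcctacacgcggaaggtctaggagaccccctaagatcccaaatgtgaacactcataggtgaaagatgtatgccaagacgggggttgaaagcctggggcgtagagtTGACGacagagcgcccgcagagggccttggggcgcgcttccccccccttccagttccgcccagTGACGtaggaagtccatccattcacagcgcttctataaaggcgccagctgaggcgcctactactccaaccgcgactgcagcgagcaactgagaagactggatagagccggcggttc
Fosb: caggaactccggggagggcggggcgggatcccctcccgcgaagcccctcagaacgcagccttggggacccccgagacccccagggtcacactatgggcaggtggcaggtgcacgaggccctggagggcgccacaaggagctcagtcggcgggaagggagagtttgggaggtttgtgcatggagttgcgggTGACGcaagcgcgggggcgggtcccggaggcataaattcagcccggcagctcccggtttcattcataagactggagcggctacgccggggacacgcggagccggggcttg
Dusp1: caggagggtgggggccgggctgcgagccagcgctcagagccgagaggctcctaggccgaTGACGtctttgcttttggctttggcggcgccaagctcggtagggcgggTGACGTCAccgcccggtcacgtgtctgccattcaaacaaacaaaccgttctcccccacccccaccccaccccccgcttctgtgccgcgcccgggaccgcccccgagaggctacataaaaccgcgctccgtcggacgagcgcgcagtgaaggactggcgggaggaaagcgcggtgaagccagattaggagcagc
The windows hold 2, 1 and 3 matches, and in Dusp1 the full palindrome TGACGTCA counts on both strands. TGACG, searched on both strands, was present for 11 of the 18 immediate-early genes with a window in the table (of 21 in the list) and for 6228 of 27025 genes (23%). TGACGTCA, which contains it, was present for 3 of the 18 (Btg2, Dusp1 and Ppp1r15a) and for 549 genes (2.03%). Jun, Zfp36, Egr1 and Ier2, whose levels are given below, were not among the 11 genes with TGACG, having no match or no window. Whether the sequence has a part in the levels was not tested. A match describes the letters in the window and says nothing of binding in these cells.

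Fos, a subunit of the AP-1 transcription factor, was detected in 28 of 35 vehicle cells, 22 of 49 p38i cells and 29 of 65 p38KO cells. Its summed level was 509 CPM in vehicle, 130 in p38i and 87.3 in p38KO, a log2 ratio of -1.97 (-2.35 to -1.61) for p38i and -2.54 (-2.90 to -2.20) for p38KO. No single cell carried this, since the highest vehicle cell held 48 of 271 UMIs and the ratios without the highest cells were -2.14 and -2.42. The level was lower in each kind of cell: in Xcr1+ cells it was 357, 64.8 and 98.4 CPM, in double-negative cells 632, 197 and 78.1, and in plasmacytoid-marked cells 468, 157 and 59.5.

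Dusp1, the phosphatase that switches p38 off, stood at 216 CPM in vehicle, 36.8 in p38i and 46.9 in p38KO. Relative to vehicle this was -2.55 (-3.27 to -1.90) in log2 units with the inhibitor and -2.20 (-2.71 to -1.71) with the knockout tumor. Of the 115 vehicle UMIs of Dusp1, 53 lay in the 3 S100-rich cells, and without such cells it stood at 124, 38.2 and 40.8 CPM, with smaller ratios of -1.70 (-2.46 to -0.99) and -1.60 (-2.21 to -1.02). Zfp36, which encodes tristetraprolin, an RNA-binding protein that p38 acts on, stood at 338, 118 and 138 CPM (-1.51 and -1.29). Fosb stood at 199, 38.4 and 74.1 CPM (-2.37 and -1.42). Jun, the partner of Fos, stood at 880, 387 and 385 CPM (-1.19 in both), lower in Xcr1+ cells (454, 117 and 185 CPM) and double-negative cells (1410, 266 and 505), but not past the call rule in plasmacytoid-marked cells, where it stood at 1236, 1130 and 916 CPM. Over all members Egr1 was called in p38KO only, at 84.5 CPM in vehicle, 62.4 in p38i and 9.38 in p38KO, and was detected in 5, 9 and 8 cells. Ier2 was called in p38i only, at 154, 72.0 and 144 CPM over all members.

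**Figure D3:**
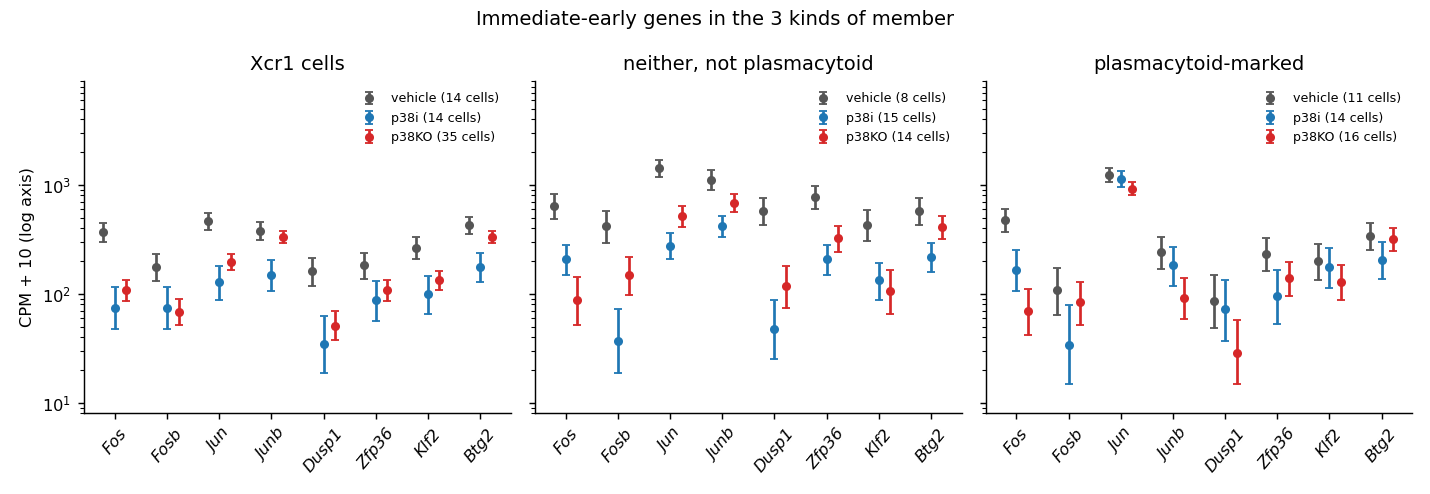
Points show summed CPM + 10 on a log axis for 8 immediate-early genes (x axis) in Xcr1+ cells, double-negative cells and plasmacytoid-marked cells, colored by library, with exact Poisson 95% intervals. Fos is highest in vehicle in all 3 panels, while Jun separates the libraries in the first 2 panels and not in the plasmacytoid-marked cells.

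By kind, 12 of 16 genes of this list were lower in p38i Xcr1+ cells (background 5.30%) with Klf6 alone higher, and 9 of 17 in p38KO Xcr1+ cells (4.73%). In double-negative cells 15 of 16 (6.75%) and 11 of 17 (4.68%) were lower, and in plasmacytoid-marked cells 4 of 9 (5.57%) and 3 of 11 (5.12%). In the classes of the rule, 12 of 18 (6.00%) and 13 of 17 (7.93%) were lower in cells with Xcr1 or Clec9a, and 15 of 16 (6.30%) and 12 of 17 (4.82%) in cells with neither. Without the highest cells the counts were 11 in p38i and 4 in p38KO for Xcr1+ cells (4.24% and 2.79%), 14 and 10 for double-negative cells (3.42% and 2.29%) and 3 and 1 for plasmacytoid-marked cells (3.51% and 2.68%). Single vehicle Xcr1+ cells held 27 of 42 Dusp1 UMIs and 31 of 71 Klf2 UMIs. Without the 1 S100-rich vehicle cell, 8 of 13 genes were lower in p38i Xcr1+ cells and 4 of 13 in p38KO (4.74% and 4.52%), with 1 higher in each, which in p38KO was Ier2 (0.88, 0.13 to 1.70). Dusp1 (57.4, 24.3 and 41.1 CPM) and Zfp36 were then no longer called in these cells, while Fos (241, 64.8 and 98.4 CPM), Fosb, Jun and Klf2 were. In double-negative cells 14 of 15 and 10 of 16 were lower without the S100-rich cells (5.82% and 4.81%). Some genes of the list were called lower outside the 149 cells too. Over all other filtered cells 7 of 21 were lower in each comparison (background 4.61% and 4.80%). Fos stood there at 486, 277 and 236 CPM and Dusp1 at 922, 306 and 386. The log2 ratio of Fos was -0.81 and -1.05 there, against -1.97 and -2.54 in the 149 cells, and whether the sizes differ between cell groups was not tested.

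Of the wider p38 pathway list, 5 of 19 genes were lower and 2 higher in p38i (background 4.19% and 4.61%), and 5 of 21 lower and 1 higher in p38KO (5.05% and 6.41%). The lower genes in both were Zfp36, Dusp1, Zfp36l2 and Dusp5, with Zfp36l1 in p38i and Mef2c in p38KO. Dusp5, a phosphatase acting on ERK, stood at 139 CPM in vehicle, 80.0 in p38i and 34.7 in p38KO. Mapk14, which encodes p38α, stood at 67.6, 72.0 and 66.6 CPM and was not called, but these are host cells, in which the tumor knockout leaves the gene intact, so the value checks neither the inhibitor nor the knockout. Tsc22d3, a glucocorticoid-induced regulator, stood at 163, 75.2 and 34.7 CPM (-1.12 and -2.23).

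Among cell-cycle genes, those called were higher in both comparisons. In p38i 8 of 23 were higher and none lower (median 0.52, background 4.61%), and in p38KO 13 of 26 were higher and none lower (median 0.76, background 6.41%). Pclaf, a factor of DNA replication, had 3 UMIs in vehicle, 37 in p38i and 81 in p38KO, in 2, 6 and 10 cells. Mki67, the marker of dividing cells, had 2, 19 and 29 UMIs in 2, 3 and 12 cells. Birc5, which encodes survivin, was at 0 in vehicle, and against a floor of 3 counts it was at least 5.68-fold higher in p38i and at least 4.17-fold higher in p38KO. The counts sat in few cells: 23 of the 37 p38i Pclaf UMIs and 41 of the 81 in p38KO came from 1 cell each, and Mki67 in p38i was no longer called without its highest cell.

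Xcr1+ cells held 2 of the 3, 35 of the 37 and 76 of the 81 Pclaf UMIs, and in them 8 of 14 cell-cycle genes were higher in p38i (5.27%) and 13 of 24 in p38KO (7.12%), and Pclaf was found in 1 of 14, 4 of 14 and 9 of 35 cells. Hmgb2, a chromatin protein abundant in cycling cells, was present in 12 of 14, 14 of 14 and 28 of 35 Xcr1+ cells and stood at 198 CPM in vehicle, 891 in p38i and 419 in p38KO. Over all other filtered cells, p38i had 8 of 37 cell-cycle genes lower and none higher, and p38KO 18 higher and none lower (background 4.61% lower and 2.57% higher in p38i, and 16.6% higher in p38KO). In all cells with Xcr1 or Clec9a, 8 of 15 were higher in p38i (5.01%) and 16 of 24 in p38KO (7.44%). The other kinds differed. Without the S100-rich cells, none of 4 genes in p38i and none of 5 in p38KO was called in double-negative cells (6.22% and 6.03% higher). In plasmacytoid-marked cells 1 of 4 was then higher in p38i (4.21%), while in p38KO 1 of 6 was lower (5.33%) and none higher.

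Among genes of the cDC1 program that the rule did not use, those called were higher in the Xcr1+ cells of both groups. Of 17 such genes, 6 were higher in p38i (Ppt1, Cd36, Naaa, Cxcl9, Cadm1 and Itgae) and 8 in p38KO (Ppt1, Cd36, Naaa, Cadm1, Itgae, Wdfy4, Tlr11 and Gcsam), and none was lower. The background of higher genes was 5.27% and 7.12%, and 5 and 8 of these calls held without the highest cells (3.74% and 6.58%). Itgae stood at 274, 571 and 499 CPM, which was 1.06 (0.65 to 1.48) and 0.87 (0.50 to 1.25) above vehicle in log2 units. Cadm1, an adhesion molecule of cDC1, stood at 187, 364 and 323 CPM, and Wdfy4, needed for cross-presentation, at 440, 607 and 768 CPM. The lineage factors Irf8 (2562, 2623 and 2679 CPM) and Batf3 (198, 154 and 191 CPM) were not called. The median depth of the Xcr1+ cells was 18249.5, 17731.5 and 20112 UMIs. They were chosen on Xcr1 itself, so genes that go with Xcr1 may depend on how many cells held little of it. Median Xcr1 in non-plasmacytoid cells with Xcr1 or Clec9a was 7, 11.5 and 21 UMIs, and its part in these values was not tested.

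Cd207, which encodes the lectin langerin carried by a subset of cDC1, was found in 0 of 14 Xcr1+ cells of vehicle, 2 of 14 of p38i and 17 of 35 of p38KO at full depth, and after thinning to 1500 UMIs in 0 of 14, 0 of 14 and 3 of 35. Its UMIs numbered 0, 3 and 47, with at most 9 in 1 cell, and against a floor of 3 counts p38KO was at least 6.39-fold higher than vehicle in Xcr1+ cells. No T cell or neutrophil of the 3 libraries held Cd207. Among the other filtered cells it went against this order, at 1.23 CPM in vehicle, 2.20 in p38i and 0.129 in p38KO.

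Serpina3g, a protease inhibitor induced by interferon-γ, and Cxcl9, the chemokine that draws CXCR3+ T cells, were higher in p38i. Serpina3g had 11 UMIs in vehicle, 116 in p38i and 53 in p38KO over all members, in 3, 13 and 14 cells. The log2 ratio was 3.17 (2.28 to 4.21) for p38i, against 1.27 (0.31 to 2.35) for p38KO. Cxcl9 stood at 82.6, 269 and 90.1 CPM, so it was higher in p38i (1.70, 1.22 to 2.22) and not called in p38KO. Most p38i UMIs of Cxcl9 lay in Xcr1+ cells, and 36 lay in 1 cell with Clec9a but no Xcr1. In Xcr1+ cells Cxcl9 stood at 93.7, 514 and 70.5 CPM, with 61 of the 127 p38i UMIs in 1 cell. In double-negative cells it stood at 181, 21.3 and 288 CPM, held by 1, 1 and 2 cells, and over all other filtered cells at 374, 156 and 263 CPM, so that the p38i order was the opposite there. Of the 11 genes of the interferon-γ list with enough counts in Xcr1+ cells, 4 were higher in p38i (Cxcl9, Serpina3g, Socs1 and Iigp1) and none lower, and the 4 held without the highest cells (background 5.27% higher). In p38KO, 2 of 12 were higher and 2 lower (7.12% and 4.73%), of which 1 each held. In double-negative cells 1 of 11 was higher and 1 lower in p38i (background 8.36% and 6.75%). There p38KO had 1 of 12 higher and none lower (7.86% and 4.68%). Without the S100-rich cells none was higher and 5 were lower in p38i double-negative cells (Cxcl9, Ifi47, Irf1, Ciita and Tap1, background 5.82%). Socs1, the feedback inhibitor of cytokine receptors, stood at 21.6, 154 and 95.5 CPM in Xcr1+ cells and was higher in both.

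**Figure D4:**
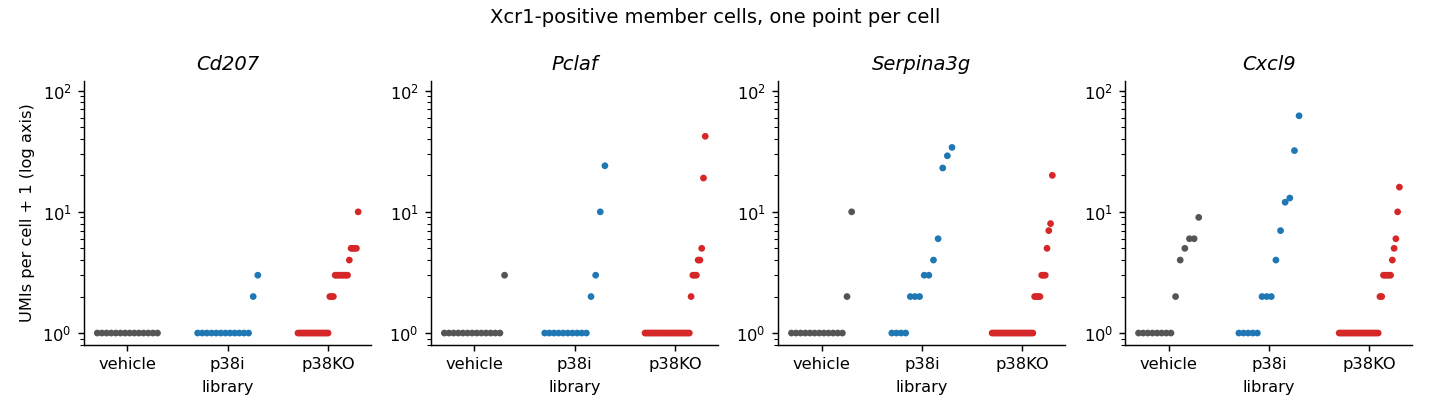
Each point is an Xcr1+ cell of vehicle (14 cells), p38i (14) or p38KO (35), with UMIs + 1 on a log axis for Cd207, Pclaf, Serpina3g and Cxcl9. Cd207 is at 0 in every vehicle cell and above 0 in 17 p38KO cells, and Pclaf reaches its highest counts in a few p38i and p38KO cells.

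Among type I interferon-stimulated genes in Xcr1+ cells, those called were lower in p38i and mostly higher in p38KO. In p38i 6 of 19 were lower (Isg15, Ifitm3, Irf7, Bst2, Ifi27l2a and Ms4a4c) and none higher (background 5.30% lower), with a median log2 ratio of -0.64. In p38KO 11 of 26 were higher and 2 lower (7.12% and 4.73%), with a median of 0.55, and 10 of the 11 held without the highest cells. Taking all cells with Xcr1 or Clec9a, plasmacytoid-marked ones included, 11 of 21 were lower in p38i (6.00%) and none higher, but p38KO had 6 of 33 higher (7.44%) and 4 lower (7.93%), with a median of 0.17. In cells with neither, 6 of 27 were higher (6.02%) and 1 lower (6.30%) in p38i, and 7 of 27 higher (5.38%) and none lower in p38KO. In double-negative cells alone p38i had 2 of 20 higher and 2 lower (8.36% and 6.75%), and without the S100-rich cells 1 of 16 higher and 4 lower (Ifi204, Trim30a, Slfn5 and Parp14, background 6.22% and 5.82%), while p38KO had 6 of 22 higher and none lower (7.86% higher), then 4 of 20 higher and 2 lower (6.03% and 4.81%). In Xcr1+ cells Irf7, the factor that amplifies the interferon response, stood at 216 CPM in vehicle, 64.8 in p38i and 260 in p38KO. Usp18, a feedback inhibitor of interferon signaling, had 2, 4 and 46 UMIs in 1, 3 and 16 Xcr1+ cells. Slfn5, an interferon-induced gene, stood at 82.9, 117 and 234 CPM, while Ifitm3 was lower in both groups at 1971, 502 and 651 CPM, all in Xcr1+ cells. Over all members Ifitm3 stood at 2085, 2268 and 1298 CPM, lower in p38KO alone, and in double-negative cells it lay above vehicle by 0.30 and 0.28 log2 units, too little for a call. In plasmacytoid-marked cells 2 of 15 genes were higher in p38i (background 4.21%) and 1, Irf7, was lower (5.57%). In p38KO 8 of 20 were higher (4.72%), but none of the 8 held without the highest cells. In these p38KO cells 122 of 129 Rsad2 UMIs came from 1 cell, and 115 Thbs1 UMIs were all from 1 cell. Without the 1 S100-rich p38KO cell, 4 of 17 were higher (4.54%) and 2, Irf7 and Ms4a4c, lower (5.33%).

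Among glycolysis and hypoxia genes, those called were lower in Xcr1+ cells and mostly higher in double-negative cells. In Xcr1+ cells 5 of 19 were lower in p38i (background 5.30%) and 12 of 21 in p38KO (4.73%), with none higher, and in p38KO 11 held without the highest cells and the median was -0.74. In double-negative cells 8 of 15 were higher and none lower in p38i (background 8.36%), and 5 of 16 were higher (7.86%) and 1 lower in p38KO. This p38KO result did not hold over all cells with neither marker, plasmacytoid-marked ones included, where 1 of 21 was higher (5.38%) and 4 lower (4.82%), while p38i had 7 higher (6.02%) and 2 lower (6.30%). Nor did it hold without the S100-rich cells, when none of 12 was called in p38KO and 5 of 14 were higher in p38i (6.22%). In Xcr1+ cells 3 of 19 and 12 of 20 were lower without them. Cells with Xcr1 or Clec9a had 3 of 22 lower in p38i (6.00%) and 11 of 23 in p38KO (7.93%), with none higher. Pkm, the pyruvate kinase, stood at 843, 474 and 491 CPM in Xcr1+ cells and at 553, 927 and 793 CPM in double-negative cells. Gapdh stood at 1888, 1433 and 1190 CPM in Xcr1+ cells, not called in p38i, and at 1072, 1822 and 1622 CPM in double-negative cells. Mif, a cytokine that hypoxia induces, stood at 710, 583 and 304 CPM in the first and 429, 767 and 697 CPM in the second. Mitochondrially encoded genes moved in p38i double-negative cells too. Without the S100-rich cells 6 of 10 were lower there (5.82%) and none higher, with a median log2 ratio of -0.52, while none of 11 was called in p38KO. Their part in these values was not tested. Of 13 heat-shock chaperones, 8 were called lower in p38KO Xcr1+ cells (4.73%) and 3 without the highest cells (2.79%), against 1 in p38i (5.30%), Hspd1, which did not hold without them. Hspa1b stood at 166, 219 and 27.9 CPM in Xcr1+ cells. In double-negative cells 2 of 8 chaperones were higher in p38i and 2 of 9 in p38KO, and none lower, and without the S100-rich cells 3 of 9 were higher in p38KO (6.03%). Hspa1b was among those higher there, with 3 UMIs in vehicle and 22 in p38KO, but was not called without the highest cells.

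**Figure D5:**
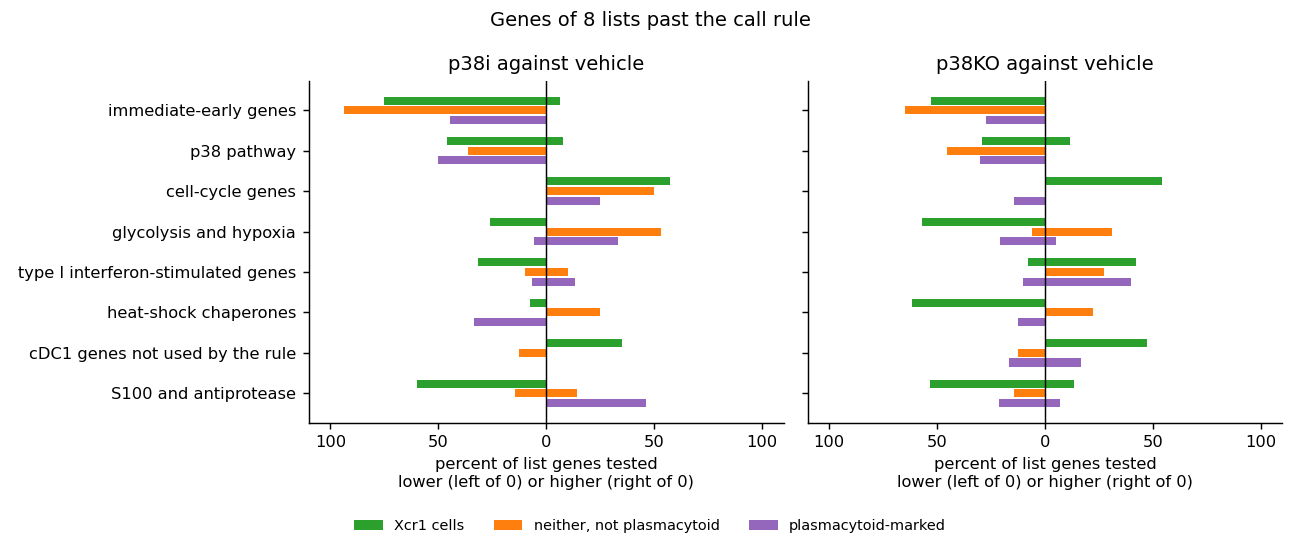
Bars show, on the x axis, the percent of tested genes of 8 lists (y axis) that were lower (left of 0) or higher (right of 0) than vehicle in p38i and in p38KO, for Xcr1+ cells, double-negative cells and plasmacytoid-marked cells, and a missing bar means that no gene was called or fewer than 4 were tested. Immediate-early genes extend to the left in both panels, cell-cycle genes of Xcr1+ cells to the right, and glycolysis and hypoxia genes point to the left in Xcr1+ cells and mostly to the right in double-negative cells.

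Among inflammatory products, Il1b in Xcr1+ cells stood at 508 CPM in vehicle, 117 in p38i and 44.1 in p38KO, the p38i ratio being -2.11 (-2.74 to -1.53) and the p38KO ratio -3.53 (-4.15 to -2.95) on the log2 scale. It was found in 8 of 14, 6 of 14 and 15 of 35 cells, but 116 of the 141 vehicle UMIs lay in 2 cells, 1 of which also held 382 UMIs of the neutrophil transcript S100a9. Without those 2 cells vehicle stood at 102 CPM, below the 117 CPM of p38i. With the 2 highest cells of every library left out, a choice made after seeing the data, 25, 6 and 21 UMIs remained, or 102, 27.0 and 33.4 CPM. In double-negative cells Il1b stood at 1185, 975 and 1634 CPM and was not called, with 159 of the 272 p38KO UMIs in 1 S100-rich cell, without which and the other such cells it was lower in p38KO (-0.57, -0.99 to -0.14). Ccl4, an inflammatory chemokine, stood at 323, 33.6 and 24.4 CPM over all members, but 81 of the 172 vehicle UMIs lay in 1 cell. Cd83, a marker of activation, was lower in p38KO Xcr1+ cells (173, 113 and 42.6 CPM) and higher in p38KO double-negative cells (158, 53.3 and 366 CPM). Ccl5, listed at 0 in the double-negative cells of vehicle and p38i, had 46 UMIs in p38KO, 34 of them in 1 cell.

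Of 13 genes of the cDC2 list, 6 were higher in p38i over all members (Il1r2, Ffar2, Cd209a, Cd209d, Mgl2 and Ltb, background 4.61%) and 1, Clec10a, was lower (4.19%). Without the S100-rich cells 5 of 12 were higher (4.21%), and Cd209a was no longer called (0.33, -0.06 to 0.72). Of its 173 p38i UMIs, 34 lay in the cell left out and 37 in plasmacytoid-marked cells. Il1r2 is also on the list of neutrophil markers and Cd209d on that of plasmacytoid markers. Mgl2, a lectin of cDC2, had 24 UMIs in vehicle, 212 in p38i and 72 in p38KO, of which 111 in p38i lay in 1 cell. Ltb, which encodes lymphotoxin β, was spread over 15, 24 and 19 cells at 54.4, 160 and 75.1 CPM (1.56, 0.95 to 2.20 for p38i). In double-negative cells alone 4 of 13 were higher in p38i (8.36%) and none lower, and Cd209a stood at 575, 709 and 865 CPM. The antigen-uptake receptors Clec4n (33.8, 410 and 138 CPM) and Fcgr3 (33.8, 293 and 240 CPM) were higher in both groups there, and in p38i alone without the S100-rich cells (41.8, 352 and 105 CPM for Clec4n and 41.8, 291 and 126 CPM for Fcgr3). In p38KO, 2 of 13 cDC2 genes were higher (6.41%) and 4 lower (5.05%) over all members.

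Among further genes higher in p38KO over all members were Ffar4, a receptor for fatty acids (31.9, 40.0 and 109 CPM), Dnase1l3, a secreted DNase (71.3, 126 and 206), Tbc1d4 (63.8, 84.8 and 182), Arsb (97.6, 122 and 245), Acsl5 (37.5, 73.6 and 105), Lrba, Sult1a1, Pqlc1, Creld2 and Shtn1. All 10 held without the highest cells. The share of Xcr1+ cells was 40.0%, 28.6% and 53.8%, and its part in these levels was not tested. Within Xcr1+ cells, which are part of the same cells, each of the 10 but Creld2 was called higher in p38KO, and each but Creld2 and Ffar4 in p38i. Ffar4 within Xcr1+ cells stood at 61.3, 97.2 and 160 CPM, still called in p38KO (1.39, 0.64 to 2.22). Zbtb46 stood at 39.6, 68.8 and 103 CPM in Xcr1+ cells, called in p38KO, and Kit, the receptor for stem cell factor, at 137, 105 and 67.6 CPM, lower in p38KO. MHC class II genes summed to 50776, 50915 and 49474 CPM in Xcr1+ cells.

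In plasmacytoid-marked cells, the B-lineage transcripts Igkc (1250, 643 and 508 CPM) and Mzb1 (649, 330 and 412 CPM) were lower in both groups. H2-Eb1, a chain of MHC class II, stood at 2045, 1122 and 1090 CPM. The rule asked for H2-Ab1 and took 11 of 22, 14 of 48 and 16 of 40 plasmacytoid-marked filtered cells, so MHC class II levels here are shaped by it. In vehicle 1 such cell held 102 H2-Ab1 UMIs, against a median of 19. Txnip was higher in both groups, at 105, 306 and 275 CPM. Cox6a2 stood at 1515, 2323 and 2381 CPM, but it is among the markers that defined these cells, so its values are no finding. Spib, a transcription factor of plasmacytoid cells, was lower in p38i alone, at 258, 126 and 316 CPM. Ccl24 (859, 173 and 4.58 CPM) and Fabp5 (607, 604 and 41.2 CPM) rested on 1 or few cells: 87 of the 123 vehicle Ccl24 UMIs and 85 of the 87 vehicle Fabp5 UMIs were in 1 cell each.

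Transcripts of other cell types were present and moved with the libraries. The 15 neutrophil markers summed to 2020 CPM in vehicle, 520 in p38i and 372 in p38KO, led by S100a9 in vehicle and p38KO and by Il1r2 in p38i, with Ly6g, Camp and Ltf at 0 in each library. A single vehicle Xcr1+ cell held 207 of the 289 vehicle S100a8 UMIs and 382 of the 645 of S100a9. The Xcr1+ values of S100a8 (789, 68.8 and 39.7 CPM) rest on it, and without the highest cells the S100a8 log2 ratios were 0.37 and -0.39, not called, and those of S100a9 0.31, not called, and -0.76. Monocyte markers (15 genes) summed to 6188, 4727 and 4923 CPM, led by Plac8 in vehicle and p38i and by Mpeg1 in p38KO. Macrophage markers (18 genes) summed to 753, 896 and 698 CPM over all members and to 530, 1199 and 1904 CPM in double-negative cells. There Apoe led in p38i and p38KO, with 84 of 89 and 85 of 105 UMIs in 1 cell each.

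T cell markers summed to 276, 250 and 241 CPM, led by Cd8b1, which plasmacytoid-marked cells held (496, 518 and 572 CPM). Cd3d was at 0, and Cd3e was at 0 because the rule required it. NK cell markers summed to 265, 331 and 151 CPM, led by Klrk1. B cell markers summed to 875, 462 and 533 CPM, led by Igkc in vehicle and Ighm in p38i and p38KO. Pax5 and Ms4a1 were at 0, and Cd79a was at 0 because the rule required it. Mast cell markers summed to 109, 96.0 and 107 CPM, led by Kit, with Fcer1a and Mcpt8 at 0, and epithelial and stromal markers to 80.7, 88.0 and 76.95 CPM. The part of these transcripts in the results above was not tested beyond the values given without the highest cells and without the S100-rich cells, and those without mixed cells in the closing section.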

How the data were processed

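The deposited UMI counts, 1 matrix for each of the vehicle, p38i and p38KO libraries, were made by the authors with Cell Ranger 6.0.0 (per the file headers) on mm10. The submitters' processing notes also name R 4.2.1 and Seurat 5. The 10x chemistry is given as v2 in the labels and as another version in the methods, which was not resolved. Barcodes numbered 4588, 6343 and 5212, and the limits of the study were applied, a minimum of 1500 UMIs and 300 genes and a maximum mitochondrial share of 20%, which left 3820, 4793 and 3859 cells. No doublet caller was run. UMIs were summed per library and kind of cell and given as CPM with exact Poisson intervals, ratios with exact conditional binomial intervals and shares with exact Clopper-Pearson intervals, with Python 3.11.15 and scipy 1.17.1. A ratio with 1 library at 0 is given as a bound against 3 counts. With 1 library per group there was no test. The procedure was tested on simulated counts.

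Members and the 34 gene lists were chosen with earlier results of these data known. Named genes were the called genes of the lists and, by size of ratio, 12 per direction over all members with at least 100 counts, 6 within a kind with at least 60 and 15 between kinds, without mitochondrial, ribosomal and numbered genes. Plasmacytoid-marked cells, Xcr1+ cells taken alone and values without the highest cell or without S100-rich cells were added after seeing the data, and genes singled out as examples within a list were picked after their values were seen. The closing section gives the alternatives tried.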

Additional observations from a re-analysis of the deposited data

Results flagged for a closer look

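Among 670 genes compared between non-plasmacytoid cells with Xcr1 or Clec9a and double-negative cells, 11 pairs of values, 3 in p38i and 8 in p38KO, were called in opposite directions. The difference between the kinds was not tested. Each value is a log2 ratio to the same vehicle library, first in cells with Xcr1 or Clec9a and then in double-negative cells.

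In p38i, Ms4a4c, a membrane protein of myeloid cells, had -2.50 and 1.45. Pgk1 had -0.59 and 0.95, and Pkm -0.66 and 0.75, both enzymes of glycolysis.

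In p38KO, Ms4a4c had -4.64 and 1.04, Pkm -0.72 and 0.52, Gapdh -0.60 and 0.60, and Mif -1.13 and 0.70. Cd83 had -1.99 and 1.21, Gpr183, a receptor that guides dendritic cells, -2.18 and 1.68, and Ctsc, a lysosomal protease, -0.65 and 1.06. Cd209a had -4.13 and 0.59, and all 31 vehicle UMIs behind the first value lay in 2 cells that held Clec9a without Xcr1. Without the cells holding 10 or more S100a8 and S100a9 UMIs, the p38KO values in double-negative cells were 0.14 for Pkm, 0.32 for Gapdh and 0.31 for Mif, no longer called, while the other 5 p38KO genes and the 3 p38i genes were still called there.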

How the results depend on the processing

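No paired analysis was possible because each group is 1 library. Of 108 shares and counts under an alternative, 78 stayed within their limits and 30 did not. The share of members after thinning every cell to 1500 UMIs was 0.0785%, 0.125% and 0.363% in vehicle, p38i and p38KO, without the mixed cells 0.524%, 0.668% and 1.22%, and without the plasmacytoid-marked cells 0.628%, 0.730% and 1.27%, while without a cell filter it was 1.25% in p38KO. Mixed cells were members with 10 or more UMIs of S100a8 and S100a9, or 2 or more of Trac, Trbc2, Nkg7, Cd79b and Siglech. The thinned share of cells with Xcr1 or Clec9a became 60%, 49.0% and 61.5% at full depth, and 43.8% in p38i without mixed cells. Genes higher in p38i numbered 162 with at least 50 counts, 155 at a log2 ratio of at least 1, 1114 with equal weight per cell, 993 with equal weight of both kinds and 169 in Xcr1+ cells. Genes lower in p38i numbered 167, 126, 867 and 901 under the first 4 of these and 141 without mixed cells. Genes higher in p38KO numbered 255 at a log2 ratio of at least 1, 1476 per cell and 1472 per kind, and lower 175, 952 and 887. The equal-weight counts use size alone, with no interval. Median-ratio scaling moved log2 ratios by 0.0063 and 0.0073.

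Of 545 values of 48 named genes, 468 stayed, 72 moved and 5 reversed. S100a8 in p38i reversed to 0.57 and S100a9 to 0.10 without mixed cells, and S100a9 to 0.21 without the cells with 10 or more S100a8 and S100a9 UMIs. Fabp5 in p38KO reversed to 0.049 without plasmacytoid-marked cells and to 0.21 without the highest cells. In vehicle, 3 counts amount to 33.8 CPM in the 8 double-negative cells and to 20.9 CPM in the plasmacytoid-marked cells, and in p38i to 16.0 and 23.5 CPM.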
